A study of Mus musculus with 45 samples.

Results

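Ascl2, Hand1, Gata2, Gata3 and Snai1 are 5 transcription factors linked to the ectoplacental cone, the trophoblast that caps the mouse conceptus and invades the uterine wall soon after implantation. They were followed section by section through 3 stages, by their gene symbols, among 15997 symbols found in at least 1 of the 3 deposited tables. The samples were pieces of untreated mouse embryos, staged in days of embryonic development as E5.25, E5.5 or E5.75, taken out of the decidua, frozen, sectioned and collected by laser capture microdissection. RNA was sequenced with Smart-seq2, a protocol for very small RNA amounts. The tables held sections 1, 2, 3, 4, 6, 7 and 8 of E5.25, 9 section numbers between 1 and 10 of E5.5, and 17 section numbers between 1 and 19 of E5.75, with 2 further E5.75 libraries, of sections 6 and 7, whose labels carry the letters VE, commonly short for visceral endoderm. E5.75 sections numbered 9 and 13 are not analysed here. The labels name no strain and point to 1 embryo per stage, so a p-value compares sections within an embryo and not embryos. They do not say which end of the embryo section 1 is, and directions are therefore given by section number.

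In the early conceptus, trophoblast next to the epiblast forms the extraembryonic ectoderm, which holds the stem cells of the placenta. Cells that leave it build the ectoplacental cone, whose outer cells become giant cells. Hand1 and Ascl2 are basic helix-loop-helix (bHLH) factors, proteins that bind DNA in pairs at short sites called E-boxes. Hand1 is known for driving giant cell formation. Ascl2 (Mash2) is an imprinted gene read from the maternal copy that is needed for the spongiotrophoblast. Gata2 and Gata3 are zinc finger proteins that bind GATA sites, act in trophoblast and regulate placental hormone genes. Snai1 is a zinc finger repressor that binds E-boxes of the CACCTG kind and is best known for lowering E-cadherin when epithelial cells become motile.

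By the gene annotation of mm10 (GENCODE M21), each member is a protein-coding gene. Ascl2 lies at chr7:142966829-142969264 on the minus strand, Hand1 at chr11:57828705-57832818 on the minus strand, Gata2 at chr6:88193891-88207032 on the plus strand, Gata3 at chr2:9857078-9890034 on the minus strand and Snai1 at chr2:167538195-167542814 on the plus strand. Gata3 overlaps 3 annotated genes, Gm13256, 4930412O13Rik and 9230102O04Rik, and none of these has a row in the E5.75 table. Whether reads were assigned by strand is not given in the sources used here, so reads of Gata3 and of its overlapping genes cannot be told apart.

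The members are linked to the same tissue and read short DNA motifs, so their promoters are shown to let these letters be compared. The 250 bases before the annotated start of 4 members are from RefSeq (GRCm38.p6), written 5′ to 3′ on the gene's own strand. They span chr7:142969265-142969514 (minus strand) for Ascl2, chr6:88193641-88193890 (plus strand) for the first start of Gata2, chr2:9878601-9878850 (minus strand) for Gata3 and chr2:167537945-167538194 (plus strand) for Snai1. The Gata3 window belongs to a RefSeq start at 9878600 and lies inside the span given for Gata3 above. Capitals mark E-boxes (CANNTG) and GATA sites, searched on both strands.
Ascl2 promoter: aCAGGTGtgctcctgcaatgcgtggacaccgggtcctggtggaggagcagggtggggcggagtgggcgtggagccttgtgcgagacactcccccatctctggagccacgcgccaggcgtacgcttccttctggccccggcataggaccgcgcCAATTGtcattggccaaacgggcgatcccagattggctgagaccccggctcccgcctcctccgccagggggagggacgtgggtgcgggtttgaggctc
Gata2 promoter: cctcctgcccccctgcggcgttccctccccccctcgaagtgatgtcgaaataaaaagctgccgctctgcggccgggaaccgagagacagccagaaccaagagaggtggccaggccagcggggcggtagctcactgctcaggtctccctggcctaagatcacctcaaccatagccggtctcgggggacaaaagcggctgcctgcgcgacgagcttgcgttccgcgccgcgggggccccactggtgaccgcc
Gata3 promoter: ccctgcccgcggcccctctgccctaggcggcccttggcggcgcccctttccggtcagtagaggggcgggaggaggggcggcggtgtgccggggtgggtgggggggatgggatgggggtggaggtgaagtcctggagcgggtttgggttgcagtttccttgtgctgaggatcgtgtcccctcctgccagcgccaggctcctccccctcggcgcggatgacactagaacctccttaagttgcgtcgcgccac
Snai1 promoter: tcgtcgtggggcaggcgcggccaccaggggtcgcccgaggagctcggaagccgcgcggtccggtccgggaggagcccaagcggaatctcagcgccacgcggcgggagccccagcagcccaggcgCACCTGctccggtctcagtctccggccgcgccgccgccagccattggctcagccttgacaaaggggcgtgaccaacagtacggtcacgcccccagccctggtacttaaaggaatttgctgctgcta

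The Ascl2 promoter held 2 E-boxes and that of Snai1 held 1, while those of Gata2 and Gata3 held 0. At least 1 E-box was present in 66.2% of 32851 promoter windows of the same length. No GATA site was found in any of the 4 windows, against 53.6% of all windows with 1 or more. The CACCTG letters, a subset of the E-boxes, were found once on either strand in Ascl2 and once in Snai1, against 17.2% of all windows. These matches describe the letters of these windows.

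All levels below are the deposited log2 values, read as log2(FPKM + 1). FPKM counts sequenced fragments relative to transcript length and to the fragments mapped in that library, so levels of different genes can be set side by side. A value of 1 stands for an FPKM of 1. Onset is the first section with an FPKM of at least 1 that is followed by a section at that level, and peak is the section with the highest value. The tables hold no counts, so the depth behind a value is unknown. Sections of low number yielded fewer genes: at E5.25 no more than 4282 genes had an FPKM of 1 or above in any section up to 4, while each later section had at least 5636. The least rich E5.5 section had 2288 such genes and the richest column 6467, and E5.75 sections had 3211 to 8217. Both VE libraries were poor, with 1496 (section 6) and 2147 (section 7). Rn45s, a ribosomal RNA precursor, made up as much as 69.8% of summed FPKM in a section, and 62.2% (section 6) and 48.8% (section 7) in VE. A 0 is therefore given as a listing of 0 and not as absence.

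At E5.75 all 5 factors were low in sections 1 to 8 and high in sections 16 to 19, yet they did not come up together. Hand1, Gata3 and Snai1 set in at section 10, Ascl2 at section 14 and Gata2 at section 16. The place of Snai1 in this order depends on the threshold. At an FPKM of 5 in place of 1 the onset of Snai1 was section 17, and the others stayed. In section 10 the FPKM of Ascl2, 3.37, was above that of Snai1, 2.29, but Ascl2 was listed at 0 in section 11. Sections 9 and 13 are not analysed, so an onset set at section 10 or 14 may lie in the gap before it. Hand1 was the most abundant, with a peak FPKM of 195 in section 19. Ascl2 peaked at 59.2 in section 16, Gata2 at 44.7 in section 19, Gata3 at 31.2 in section 18 and Snai1 at 24.1 in section 19.

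**Figure D1:**
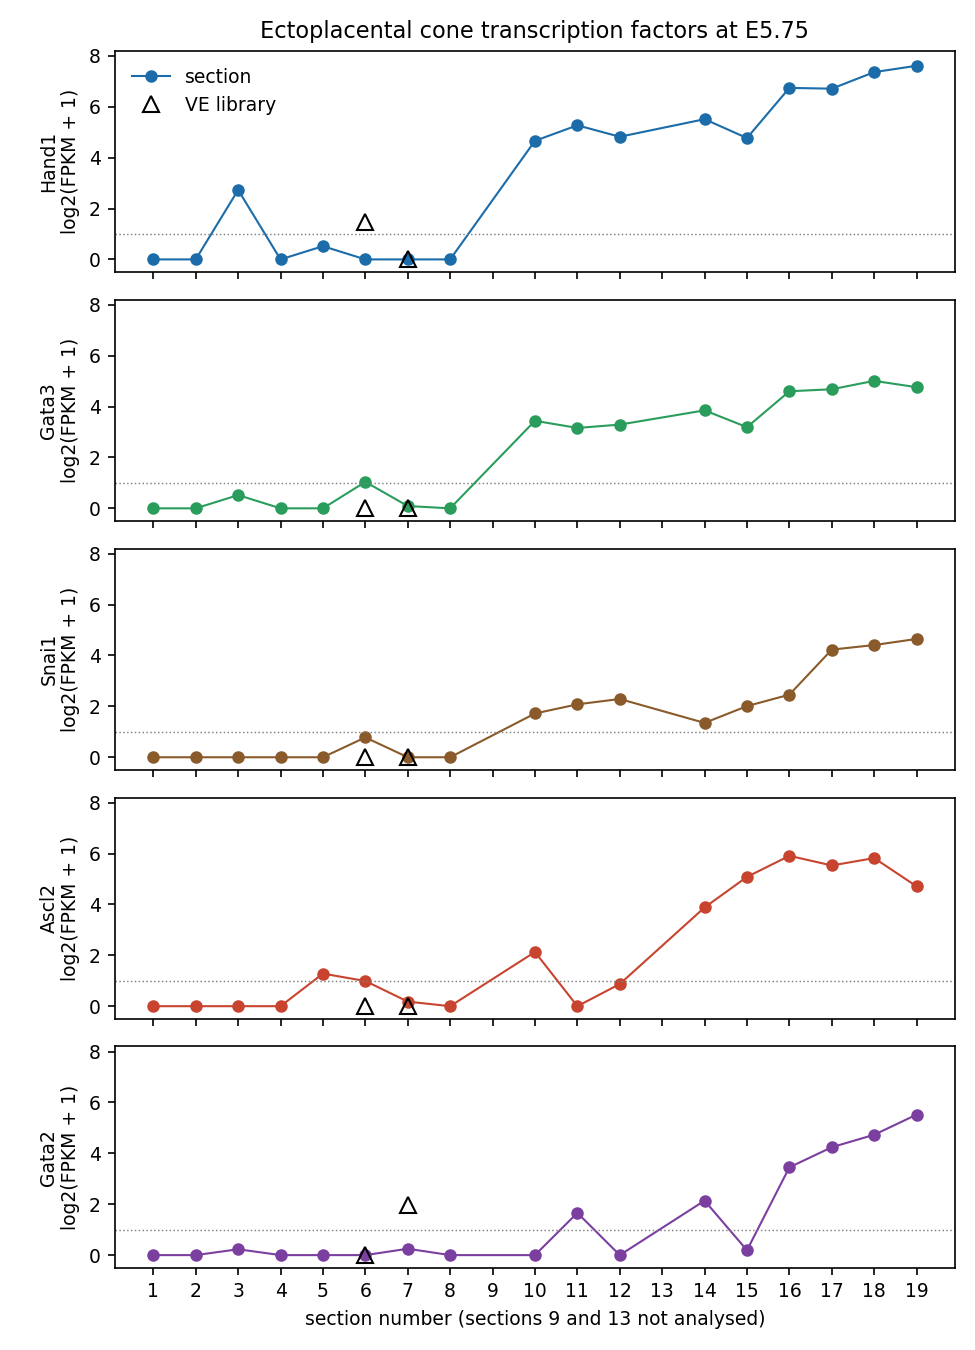
Levels of the 5 factors at E5.75, in log2(FPKM + 1), by section number. Filled points are the 17 sections, open triangles the 2 VE libraries, and the dotted line an FPKM of 1. Hand1, Gata3 and Snai1 stay at or above 1.35 from section 10 on, Ascl2 has climbed by section 14 and Gata2 climbs at section 16.

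Hand1 was listed at 0 in sections 1, 2, 4, 6, 7 and 8, with 2.73 in section 3 and 0.52 in section 5. In sections 10, 11 and 12 it stood at 4.66, 5.27 and 4.82, in sections 14 and 15 at 5.51 and 4.77, and in sections 16, 17, 18 and 19 at 6.74, 6.71, 7.36 and 7.61. Its profile thus had a low part, a middle step and a high step, with 1 stray value in section 3.

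Gata3 followed the same steps at a lower level. Its values in sections 1 to 8 ran between 0 and 1.04, the latter in section 6. Sections 10, 11 and 12 had 3.44, 3.16 and 3.29, sections 14 and 15 had 3.85 and 3.19, and sections 16, 17, 18 and 19 had 4.60, 4.68, 5.01 and 4.76. The last 4 sections differed little among themselves, and the peak moved to section 16 when all columns were rescaled to a common sum without Rn45s.

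Snai1 was listed at 0 in 7 of the first 8 sections, with 0.78 in section 6. It stood at 1.72, 2.08 and 2.29 in sections 10, 11 and 12, at 1.35 and 2.01 in sections 14 and 15, at 2.46 in section 16, and at 4.23, 4.41 and 4.65 in sections 17, 18 and 19. Its first 5 sections after onset had no order of their own, and the high part began at section 17. At an FPKM of 5 in place of 1, its onset moved to section 17.

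Ascl2 had scattered low values before its onset: 1.28, 0.99 and 0.18 in sections 5, 6 and 7, and 2.13, 0 and 0.87 in sections 10, 11 and 12. It then reached 3.88 and 5.08 in sections 14 and 15, and 5.91, 5.53, 5.82 and 4.71 in sections 16, 17, 18 and 19. Among the members it alone had its peak before section 18 in the deposited values, while after rescaling the peak of Gata3 was section 16 too. The Ascl2 value in section 19 was the lowest of its last 5 sections.

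At an FPKM of 1 Gata2 had the latest onset, section 16, while at an FPKM of 5 that of Snai1, section 17, was later. For Gata2 no section from 1 to 8 passed 0.25, and sections 10, 11 and 12 had 0, 1.66 and 0. Sections 14 and 15 had 2.14 and 0.19, and sections 16, 17, 18 and 19 had 3.45, 4.24, 4.73 and 5.52. Its level was higher in each section from 16 on than in the one before, and in section 19 it was second to Hand1, above Gata3, Ascl2 and Snai1.

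For each gene limma fitted a straight line through the sections, and its change is the log2 distance that line covers between the first and the last section, given with the standard error (SE). All 5 members rose at E5.75, against 18.9% of the 11149 genes tested. Hand1 changed by 8.38 ± 0.92 (adjusted p = 2.13e-06), Ascl2 by 6.41 ± 0.87 (adjusted p = 2.72e-05), Gata3 by 5.81 ± 0.66 (adjusted p = 3.26e-06), Gata2 by 4.80 ± 0.84 (adjusted p = 0.000431) and Snai1 by 4.62 ± 0.64 (adjusted p = 3e-05; n = 17 sections). The median change of the members was 5.81, against 0.80 over all genes tested. Each of the 5 passed in all 27 alternatives, including the fit that left out sections 1 and 2 and the one that took detected gene number as a second term. In tissue pieces, fewer cells of a type and less RNA per cell cannot be told apart.

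Sections 10 to 19, in which Elf5 and Tfap2c were high, were then fitted alone to ask which members change among them. Ascl2, Gata2 and Hand1 rose, against 1.13% of the 9967 genes tested: Ascl2 by 5.34 ± 1.01 (adjusted p = 0.0171), Gata2 by 5.26 ± 1.0 (adjusted p = 0.0178) and Hand1 by 2.94 ± 0.54 (adjusted p = 0.0148; n = 9 sections). Snai1 had a change of 2.93 ± 0.79 (adjusted p = 0.0805) and Gata3 of 1.85 ± 0.55 (adjusted p = 0.105), which did not pass. The median of the members was 2.94, against 0.14 over all genes tested. These calls rest on few sections: without section 18 none of the 5 passed (Ascl2 5.31 and Hand1 2.78, both with adjusted p = 0.0627, and Gata2 5.08 with adjusted p = 0.0701). Without section 19 Ascl2 alone passed (Hand1 2.75, adjusted p = 0.0745; Gata2 4.85, adjusted p = 0.0929), and without section 11 Ascl2 did not (4.43, adjusted p = 0.0592).

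Set as blocks, sections 17 to 19 stood above sections 10 to 12 for every member without overlap, as they did for 15.3% of the 9967 genes. Ascl2 averaged 5.36 ± 0.57 in sections 17 to 19 and 1.0 ± 1.07 in sections 10 to 12 (SD, n = 3 each), and Gata2 4.83 ± 0.64 and 0.55 ± 0.96 in the same blocks. Hand1 averaged 7.23 ± 0.47 in sections 17 to 19 against 4.91 ± 0.31 in sections 10 to 12, Snai1 4.43 ± 0.21 against 2.03 ± 0.29, and Gata3 4.81 ± 0.17 against 3.30 ± 0.14. The differences were thus 4.36 for Ascl2, 4.28 for Gata2, 2.40 for Snai1, 2.31 for Hand1 and 1.52 for Gata3, against a median of 0.14 over all genes. These blocks were chosen after the profiles had been seen, and no test was made of them.

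The order of the levels also differed between the blocks. In sections 17 to 19 Hand1 was first, with values above those of Ascl2 without overlap. Ascl2, Gata2 and Gata3 followed with overlapping ranges (4.71 to 5.82, 4.24 to 5.52 and 4.68 to 5.01), and Snai1 ended at 4.23 to 4.65, just below Gata3. In sections 10 to 12 the order was Hand1 (4.66 to 5.27), Gata3 (3.16 to 3.44), Snai1 (1.72 to 2.29), Ascl2 (0.00 to 2.13) and Gata2 (0.00 to 1.66). The first 3 of these did not overlap, whereas Snai1 overlapped Ascl2, and Ascl2 overlapped Gata2.

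The extraembryonic ectoderm was looked at through 11 transcription factors of trophoblast stem cells, each with a row at E5.75. In sections 10 to 19, 5 of them fell (Cdx2, Eomes, Esrrb, Sox2 and Sox21), against 0.532% of all genes tested, and 0 rose. The other 6 had changes of 0.11 to 1.83 that did not pass, and the median of the list was 0.11. Over all 17 sections 7 of the 11 rose, against 18.9% of all genes (Tfap2c 9.40 ± 0.85, Elf5 6.86 ± 0.87, Tead4 3.87 ± 0.64 and Tfap2a 3.14 ± 0.63 had the smallest p) and 1 fell, Sox2, by 3.76 ± 1.22 (adjusted p = 0.0319), against 2.07% of all genes falling. The trend of a member was not tested against that of a stem cell factor.

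Cdx2, a homeobox factor needed for trophoblast stem cells, had 4.32, 4.49 and 4.43 in sections 10, 11 and 12, 2.82 and 2.73 in sections 14 and 15, and at most 0.37 in sections 16 to 19. Its change from section 10 to section 19 was -5.42 ± 0.83 (adjusted p = 0.00569, limma). The sections in which Cdx2 left were those in which Ascl2 and then Gata2 came up: at sections 14 and 15 Cdx2 and Ascl2 were both above an FPKM of 5, and from section 16 on Cdx2 was near or at 0.

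Esrrb, an orphan nuclear receptor of stem cells, left earlier, with 4.35, 3.73 and 2.73 in sections 10, 11 and 12 and at most 0.73 afterwards (-4.35 ± 0.95, adjusted p = 0.0302). Sox2 had 4.98, 4.65 and 4.39 in the same 3 sections, 1.05 in section 14 and 0 from section 15 on (-5.93 ± 0.95, adjusted p = 0.00849). Sox21, another SOX factor, had 4.44, 4.69 and 4.71, then 3.10 and 1.27 in sections 14 and 15 and at most 0.61 later (-5.53 ± 0.83, adjusted p = 0.00466). Eomes, a T-box factor of trophoblast stem cells, declined gradually, with 6.43 in section 10 and 3.36 in section 19 (-3.33 ± 0.43, adjusted p = 0.00176). Leaving out any single section left 4 or 5 of the 5 falling.

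**Figure D2:**
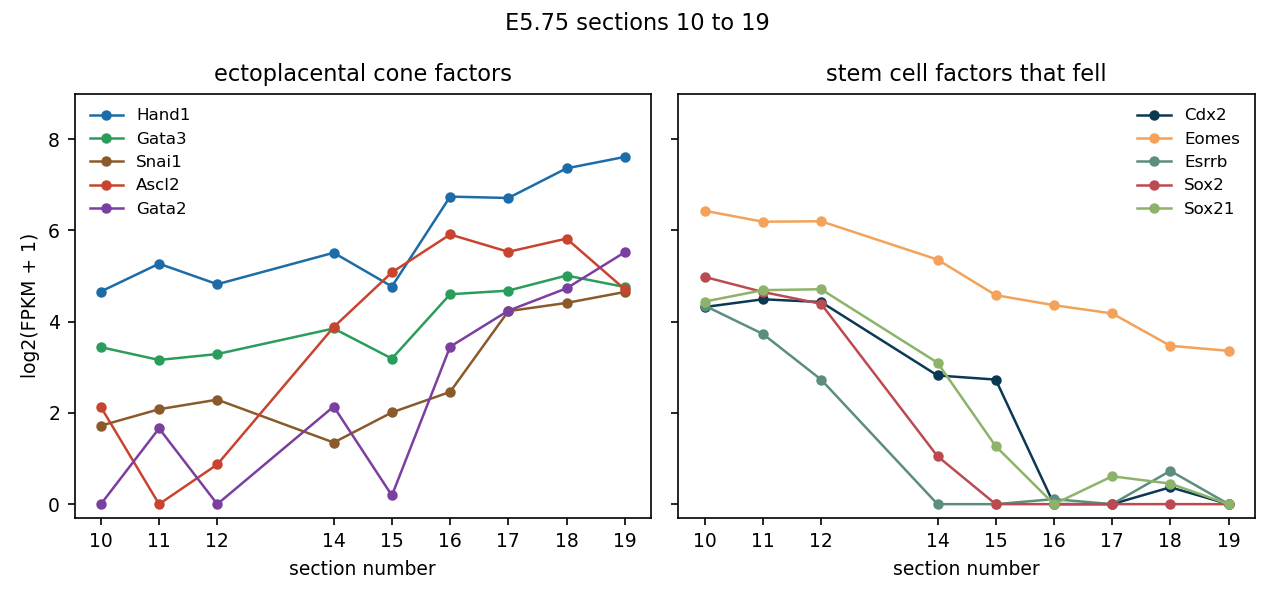
Levels in E5.75 sections 10 to 19, in log2(FPKM + 1). The left panel holds the 5 ectoplacental cone factors, the right panel the 5 trophoblast stem cell factors that fell, and each point is 1 section. Cdx2 drops to 0 at section 16, where Ascl2 has its peak of 5.91 and Gata2 has 3.45.

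Elf5, an ETS factor, and Tfap2c, an AP-2 factor, by which this range was described above, were high in sections 10 to 12 and 17 to 19. Between these blocks Elf5 had 5.21, 3.89 and 3.60 in sections 14, 15 and 16. Elf5 had a change of 0.38 ± 0.71 (adjusted p = 0.859) and averaged 5.66 ± 0.12 in sections 17 to 19 and 5.01 ± 0.52 in sections 10 to 12 (SD, n = 3 each). Tfap2c had a change of 1.83 ± 0.45, just outside the threshold (adjusted p = 0.0541), and was among the genes most like Gata3 over all sections.

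**Figure D3:**
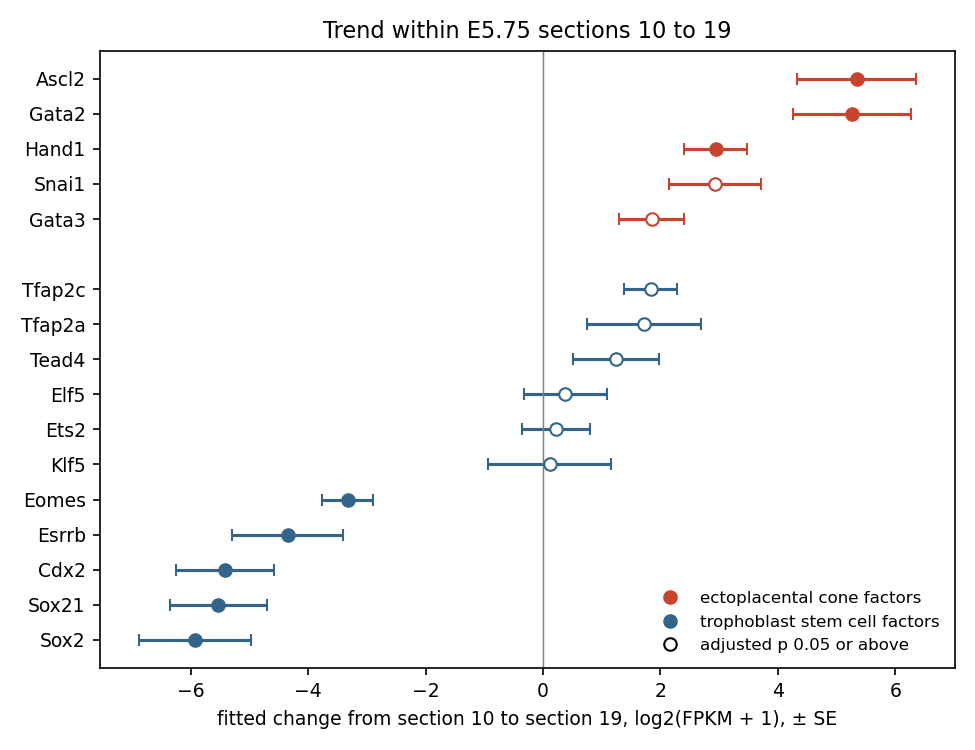
Fitted change from section 10 to section 19 of E5.75, in log2(FPKM + 1), with SE bars (n = 9 sections), for the 5 ectoplacental cone factors (top) and 11 trophoblast stem cell factors (bottom). Filled points have an adjusted p under 0.05 in limma, open points do not. The changes run from 5.34 for Ascl2 to -5.93 for Sox2.

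Other genes of the ectoplacental cone and of giant cells were read next. Of 16 tested, 12 rose and 0 fell over all sections of E5.75, against 18.9% of all genes rising. Within sections 10 to 19, 8 rose and 0 fell, against 1.13% rising (medians of the list 3.65 and 2.69). The other 8 did not pass there, and Peg10 (-2.06), Rhox6 (-1.89) and Rhox9 (-1.17) had negative changes. Tpbpa, also among these 8, had a change of 2.24 ± 1.19 (adjusted p = 0.4, limma). It had 2.83 and 3.26 in sections 14 and 15, 0 in sections 16 and 17, and 1.63 and 3.53 in sections 18 and 19. Over all sections Tpbpa rose by 2.37 ± 0.72 (adjusted p = 0.0236). Phlda2, an imprinted gene that restrains placental growth and a neighbour of Ascl2 in the same imprinted cluster, had 4.56, 3.88 and 4.80 in sections 10, 11 and 12, 7.83 and 7.30 in sections 14 and 15, and 8.59 to 10.12 in sections 16 to 19. It changed by 6.53 ± 0.59 within sections 10 to 19 (adjusted p = 7.61e-05). Lgals1, a galectin, changed by 4.70 ± 0.66 (adjusted p = 0.00351), and the keratins Krt18 and Krt8 by 1.99 ± 0.37 (adjusted p = 0.0168) and 4.0 ± 0.52 (adjusted p = 0.00176). Phlda2 had stepped up by section 14, where the onset of Ascl2 was set, and section 13 between is not analysed.

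The giant cell hormone gene Prl3d1, placental lactogen 1, did not keep to these sections. It had 8.22, 2.41, 2.60, 5.67, 8.75 and 9.06 in sections 14, 15, 16, 17, 18 and 19 and rose within sections 10 to 19 (8.83 ± 1.73, adjusted p = 0.0204). It also had 8.55 in section 6 and 6.13 in section 2, where Hand1 and Gata2 were listed at 0. Over all sections its change of 4.44 ± 2.03 did not pass (adjusted p = 0.119).

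Genes of the regulatory pathways around the 5 factors were read from 3 lists. Among bHLH partners and inhibitors, 4 of 11 tested rose over the whole E5.75 series, against 18.9% of all genes, and 1 fell. Within sections 10 to 19, 0 of 10 passed, where 1.13% of all genes rose and 0.532% fell. Id2, which keeps bHLH factors from binding DNA, rose by 7.37 ± 1.26 (adjusted p = 0.000368) but stood at 6.85 to 7.78 throughout sections 10 to 19 (change -0.13 ± 0.41). Hes1, a bHLH repressor of the Notch pathway, rose by 3.11 ± 0.76, Bhlhe40 by 2.13 ± 0.66 and Mdfi, an inhibitor of bHLH factors, by 1.43 ± 0.48, while the partner gene Tcf4 changed by -2.40 ± 0.59 (adjusted p = 0.00673). Id2 was thus already high in sections 10 to 12, below the onset of Ascl2.

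Of 6 other GATA family genes and cofactors tested, 2 rose over all sections, against 18.9% of all genes, and 0 passed within sections 10 to 19, against 1.13% rising. Gata1, a blood lineage factor, rose by 3.38 ± 0.89 (adjusted p = 0.00968), with values up to 4.50 in section 18 and 0 in section 19. Zfpm1 (FOG1), which binds GATA factors, rose by 2.20 ± 0.65 (adjusted p = 0.0201), and stood at 2.02 to 2.58 in sections 10 to 12 already. Gata6 had a change of 1.66 ± 0.67 (adjusted p = 0.0775) and Gata4, an endoderm factor, of -0.37 ± 1.01 (adjusted p = 0.82). Lmo4, a LIM-only cofactor, had a change of 1.30 ± 0.68 (adjusted p = 0.167).

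Of 11 other Snail family and epithelial-mesenchymal genes tested, 2 rose at E5.75 and 0 fell, a share near the 18.9% of all genes that rose. These were Cldn4, a tight junction claudin (7.60 ± 0.77, adjusted p = 7.04e-07), and Cdh5, the cadherin of endothelial cells (4.48 ± 0.82, adjusted p = 0.000607). Cdh1, the E-cadherin gene that Snai1 is known to repress in other settings, had a change of 1.34 ± 0.58 (adjusted p = 0.101), and of -0.60 ± 0.40 within sections 10 to 19 (adjusted p = 0.52). Cdh2, N-cadherin, had a change of -1.25 ± 0.51 (adjusted p = 0.0823). Snai2 has no row in the E5.75 table.

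Markers of other tissues were read in the same sections. Of 9 decidua genes tested, 4 rose over all sections of E5.75, against 18.9% of all genes, and 0 of 8 passed within sections 10 to 19, against 1.13% rising. The 4 were Cryab (5.69), Prl8a2 (4.60), Htra1 (3.55) and Cebpb (2.57). The 10 decidua genes with a row summed to an FPKM of 35.6 to 331 in sections 16 to 19 and of 11.1 to 37.2 in sections 10 to 12, with the highest in section 19. Across sections 14 to 19 the sums ran from 5.15 to 331. Sections 14 and 15 differed, with 6.17 and 0.67 for Prl8a2 and 6.07 and 0.89 for Cryab. The genes of the list differed among themselves. In sections 16, 17, 18 and 19 Prl8a2 had 4.37, 4.36, 5.10 and 7.46, and Cryab 3.84, 2.77, 4.96 and 6.81. Dcn, a stromal gene, was listed at 0 in each of sections 10 to 19, and Hoxa10 in 8 of these 9. Of 12 parietal endoderm genes, 4 rose over all sections and 0 within sections 10 to 19, beside the same shares of all genes. The parietal sums were 21.1 to 130 in sections 16 to 19 and 44.8 to 61.7 in sections 10 to 12. With sections 14 and 15 included they reached 191. The part of these tissues in the members' changes was not tested.

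Only 3 of 15 blood and leukocyte genes have a row at E5.75, and Ptprc and the globin genes of the list do not. Cd52, a leukocyte surface gene, was listed at 0 in sections 1 to 15 and had 2.0, 3.67, 3.12 and 4.98 in sections 16, 17, 18 and 19 (change within sections 10 to 19 4.86, limma). These are the sections in which Gata2 was high, but the other blood and leukocyte genes with a row did not share them. Cd68 had 1.11 in section 16 and was listed at 0 in sections 17, 18 and 19. Tyrobp had 1.61 in section 12 and was listed at 0 in sections 14 to 19. Cdh5 had 2.74, 2.97, 4.47 and 5.89 in sections 16, 17, 18 and 19, and a change of 5.15 ± 0.98 within sections 10 to 19 (adjusted p = 0.0171). Of 11 endothelial markers listed after these values were seen, 6 have a row, Cdh5 among them, and the other 5 differed among themselves. Pecam1 had 0.00, 1.98, 2.61 and 4.22 in sections 16, 17, 18 and 19, but also 3.14 in section 14. Egfl7 was higher in sections 10 to 12 (4.14 to 4.17) than in section 19 (1.82), and Esam was listed at 0 in sections 16, 17 and 19. Eng reached at most 2.43, and Ramp2 had its highest value, 6.53, in section 2. Kdr, Tek, Tie1, Cldn5 and Emcn have no row. The part of such cells in the level of Gata2 was not tested.

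Of the epiblast genes, 9 of 11 fell over all sections of E5.75 and 0 rose, against 2.07% of all genes falling. Within sections 10 to 19, 3 of 6 fell, against 0.532% of all genes: Pou3f1 by 5.12 ± 0.60 (adjusted p = 0.00087), Dnmt3b by 2.43 ± 0.49 (adjusted p = 0.0223) and Sox2, which both lists hold. The 11 epiblast genes summed to an FPKM of 47.8 to 86.6 in sections 16 to 19 and of 151 to 218 in sections 10 to 12, with 131 and 85.6 in sections 14 and 15. Pou3f1, Dnmt3b, Nanog and Utf1 carried much of these sums, while Otx2 and Nodal were listed at 0 in each of sections 10 to 19.

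As a description, the profiles of the members were set against each other by Pearson's r. Over the 17 sections r ran between 0.78 (Ascl2 and Gata2) and 0.97 (Hand1 and Gata3). The points share 1 embryo and the number of genes detected per section, and every member was at or below 2.73 in sections 1 to 8. Within the 9 sections from 10 on the range was wider, between 0.51 for Ascl2 and Snai1 and 0.99 for Hand1 and Gata2. Ascl2 had the lowest r with each of the other 4 there (0.51 to 0.76).

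Among 4220 genes with a mean FPKM of at least 5 over the 17 sections, the profile most like that of Hand1 was Mbnl2 (r = 0.987), followed by Ahnak, Gata3, Itga7 and Irx2. Mbnl2 also led for Gata3 (r = 0.982), followed by Sdc4, Tfap2c, Cmtm5 and Hand1. For Ascl2 the first was a joint row of C430049B03Rik with Mir322, Mir351 and Mir503 (r = 0.909), followed by Phlda2 (r = 0.908), Cited2, Crim1 and Sdc4. For Gata2 they were S100a11 (r = 0.971), Cdh5, Krt19, Neat1 and Irx1, and for Snai1 Zbtb10 (r = 0.982), Crim1, Lgals1, Plaur and Klf6. These lists depend on the measure: with Spearman's rho 2 of 5 genes were shared for Ascl2 and Snai1, 1 for Gata2 and 0 for Hand1 and Gata3.

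Within sections 10 to 19, where 4463 genes qualified, Hand1 and Gata2 were each other's nearest (r = 0.986). Hand1 was followed by Psma6 and Sin3b, and Gata2 by Neat1 and Psma6. Ehd1, Mff and Cited2 were nearest to Ascl2, Cd63, Alyref and Sin3b to Gata3, and Ywhah, Marcks and Fasl to Snai1. Neat1, a long noncoding RNA, averaged 5.10 in sections 17 to 19 and 1.21 in sections 10 to 12.

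In the VE libraries the members were low or listed at 0. The VE libraries of sections 6 and 7 had 1.46 and 0.00 for Hand1, against 0 in both other libraries of these sections. Gata2 had 0.00 and 1.95 in the VE libraries, against 0.00 and 0.25 in the other libraries of sections 6 and 7. Ascl2, Gata3 and Snai1 were listed at 0 in both VE libraries, against at most 1.04 in the others.

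No member reached an FPKM of 1 in 2 of these 4 libraries, so none entered the comparison of VE with the other libraries of sections 6 and 7. Without that filter their differences, VE minus the others, ran between -0.58 for Ascl2 and 0.85 for Gata2, and none passed (adjusted p = 0.322 to 0.449, limma, 2 libraries against 2). The VE libraries also held genes of other tissues: Prl3d1 had 9.17 in that of section 6, and Pou5f1, an epiblast gene, had 6.73 in that of section 7. The 16 visceral endoderm genes summed to an FPKM of 273 and 1120 in the VE libraries, against sums of 3.49 to 571 across the 8 lowest sections. The same genes summed to 48.2 to 97.5 in sections 10 to 12 and to 21.7 to 383 in sections 14 to 19.

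At E5.5 Hand1, Gata3 and Snai1 were present in the higher sections, at lower levels than at E5.75, and Ascl2 and Gata2 had low or scattered values. The levels of the stages come from tables that may have been normalized separately, and no test was made between stages. For 7 of the 9 section numbers the deposited column stands for parts A and B joined, in a way not stated. Section 10 has a column for each part, and their mean was used.

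Hand1 was listed at 0 in section 1 and had 0.66, 0.18 and 2.20 in sections 2, 4 and 5. It had 4.36, 3.97, 4.20 and 4.19 in sections 6, 7, 8 and 9, and 4.44 and 5.20 in parts A and B of section 10. Its onset was section 5 and its peak section 10, and from section 6 on it was nearly level.

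Gata3 set in at section 6, with 2.11, 2.56, 1.79 and 2.42 in sections 6 to 9 and 2.52 and 3.26 in the parts of section 10. Snai1 set in at section 5 with 1.56 and, with the parts of section 10 averaged, peaked in section 6 at 2.50. Its highest single column was part B of section 10. In section 8 it had 0.75 and in the parts of section 10 it had 1.5 and 3.05, so that it had no single high zone.

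Gata2 stayed low, between 0 and 1.60 in any column, with 1.26 in section 5, 1.25 in section 9, and 0.64 and 1.60 in the parts of section 10. Ascl2 had 1.40 in section 6, 0.36 in sections 7 and 8, 0 in section 9, and 2.85 and 1.51 in parts A and B of section 10. It reached an FPKM of 1 in section 6 and section 10 only, which are not next to each other, and so has no onset under the rule. Ascl2 was higher in part A of section 10, whereas the other 4 were higher in part B.

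Of the 5 members, 3 rose with section number at E5.5, against 28.3% of the 8251 genes tested. These were Hand1 (5.30 ± 0.95, adjusted p = 0.00133), Gata3 (3.25 ± 0.74, adjusted p = 0.0049) and Snai1 (2.14 ± 0.79, adjusted p = 0.0484; limma, n = 9 section numbers). Ascl2 had a change of 1.28 ± 0.66 (adjusted p = 0.143) and Gata2 of 1.02 ± 0.56 (adjusted p = 0.164). The median was 2.14, against 1.22 over all genes. The number of detected genes climbed with section number too, and with it as a second term in the fit 0 members passed (Hand1 2.97 with adjusted p = 0.829, Gata3 2.35 with the same adjusted p and Snai1 0.21 with adjusted p = 0.988). Without sections 1 and 2 Hand1 alone passed, with Gata3 at 4.0 (adjusted p = 0.0662) and Snai1 at 1.64 (adjusted p = 0.461), and Snai1 was also lost without section 1, 2, 4, 7, 9 or 10.

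**Figure D4:**
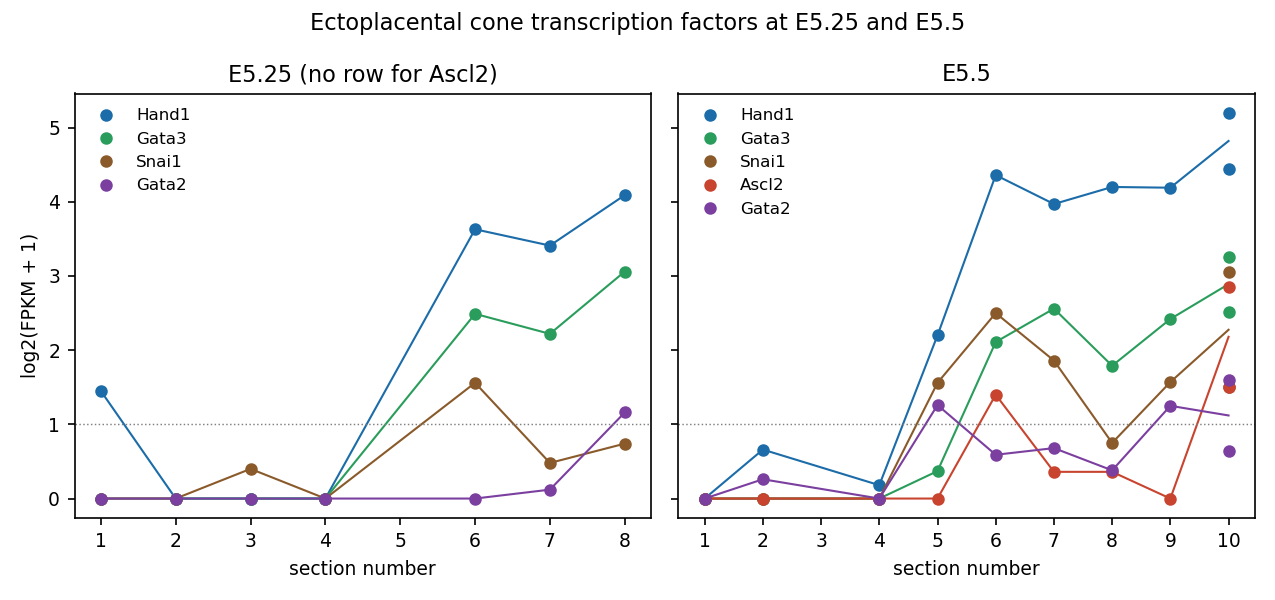
Levels of the factors at E5.25 (left) and E5.5 (right), in log2(FPKM + 1), by section number. Each point is 1 deposited column, lines join section means, and the dotted line is an FPKM of 1. Hand1 and Gata3 are above it from section 6 on at both stages, and the pair of points at section 10 of E5.5 are its parts A and B.

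At E5.25 Ascl2 has no row in the table, in which every gene reached an FPKM of 1 in some section. Hand1 had 3.63, 3.41 and 4.09 in sections 6, 7 and 8, and 1.45, 0, 0 and 0 in sections 1, 2, 3 and 4. Gata3 was listed at 0 in sections 1 to 4 and had 2.49, 2.22 and 3.06 in sections 6, 7 and 8. Both set in at section 6 and peaked in section 8. No section between 4 and 6 is held at this stage, so these onsets may lie in that gap.

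Snai1 reached an FPKM of 1 in section 6 alone (1.56), with 0.48 in section 7, 0.74 in section 8 and 0.40 in section 3. Gata2 had 0.12 in section 7 and 1.16 in section 8 and was listed at 0 elsewhere. Neither has an onset under the rule. Of the 4 members with a row, Hand1 and Gata3 could be tested and 0 passed, against 0.378% of the 7148 genes tested that rose (Hand1 4.04 ± 1.47, adjusted p = 0.0731, and Gata3 3.45 ± 1.11, adjusted p = 0.0624; limma, n = 7 sections).

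At the earlier stages Cdx2 and Esrrb were found in sections that also held Hand1 and Gata3, whereas Eomes and Sox2 also had values in lower sections. At E5.25 Cdx2 had 3.26, 3.44 and 3.21, Esrrb 2.56, 3.05 and 2.83, and Eomes 5.47, 5.44 and 5.74 in sections 6, 7 and 8, and Cdx2 and Esrrb were listed at 0 in sections 1 to 4. In those 4 sections Eomes had 1.19, 0.85, 1.11 and 0.00, and Sox2 had 4.68 in section 2. At E5.5 Eomes had 4.55 in section 1 and 2.17 in section 2, and Sox2 had 1.80 in section 2 and 2.88 in section 4. Cdx2 at that stage had 3.43, 3.19, 2.98 and 2.12 in sections 6, 7, 8 and 9, then 2.60 in part A and 0.00 in part B of section 10. Phlda2 had 4.87, 4.77, 5.02 and 5.85 in sections 6 to 9, and 8.07 and 7.85 in the parts of section 10. Part B of section 10 was thus the 1 column of E5.5 that had Hand1 above 5 with Cdx2 at 0, and Ascl2 stood at 1.51 there.

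Across the stages the highest level of each member was found at E5.75. Hand1 peaked at 4.09 at E5.25, 4.82 at E5.5 and 7.61 at E5.75, Gata3 at 3.06, 2.89 and 5.01, and Snai1 at 1.56, 2.50 and 4.65. Gata2 peaked at 1.16, 1.26 and 5.52, and Ascl2 at 2.18 at E5.5 and 5.91 at E5.75. The E5.5 peaks use the mean of the parts of section 10. The highest single E5.5 column was part B of section 10 for Hand1 (5.20), Gata3 (3.26), Snai1 (3.05) and Gata2 (1.60). For Ascl2 it was part A (2.85). With 1 embryo a stage and tables that may be scaled apart, these are levels and not a tested change.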

How the data were processed

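The deposited tables, 1 for each stage, give FPKM on a log2 scale, already normalized by the authors. The values were taken as log2(FPKM + 1): they begin at 0, and turned back to FPKM no column sums to more than 783605. Per the submitters' processing notes, TopHat2 2.0.4, Cufflinks 2.0.2 and build mm10 were used; what each did, the annotation and the way of normalizing are not given in the sources used here. The number of columns of values left unused was 0. Without counts the depth is unknown, and no interval of counting error can be given. For 1 column of E5.5 the labels conflict: the title says part B of section 10, while the source name and the column name give 11. It was taken as section 10.

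The test was limma 3.58.1 in R 4.3.3 (moderated, trended variances; both directions; Benjamini-Hochberg over every gene tested, threshold 0.05). A gene entered if 2 or more of the fitted columns had an FPKM of 1 or above. Stages were fitted separately, with section number scaled to lie between 0 and 1. The code was checked on simulated data. The members and the 11 gene lists were chosen with earlier results of these data known. Named genes are the 5 members, the 5 genes nearest to each in profile (3 within sections 10 to 19) and up to 4 genes of each list with the smallest p at E5.75. Other genes named from the lists, such as Prl3d1, Cdx2, Esrrb, Sox2, Sox21, Eomes and Cdh1, and the section blocks and endothelial markers, were chosen after their values were seen. The alternatives changed the pseudocount (0.1 or 5), the low-value filter (none, or an FPKM of 5), the scaling (common sum without Rn45s, or quantiles), the variance trend (none), the model (detected gene number as a covariate) and the sections used (1 and 2 left out, or each left out in turn). Figures were drawn with matplotlib 3.10.9.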

Additional observations from a re-analysis of the deposited data

Results flagged for a closer look

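Gata2 at E5.25 stood apart in 1 of the 7 sections. Its level of 1.16 in section 8 was far from the next highest, 0.12 in section 7, and the gap took up 0.892 of the whole range, above Dixon's critical value of 0.568 for 7 samples. The other 5 sections were listed at 0. The critical value is set for chance giving about 1 such case in 20 groups of independent values. Values tied at 0 and sections in order do not meet that condition. Both ends were also looked at for each member with a row, so the rate does not hold here.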

How the results depend on the processing

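All 5 members rose over E5.75 in each of 27 alternatives, 1 of which, keeping the VE libraries at sections 6 and 7, was chosen after seeing the data. No alternative turned a member's direction at any stage. Where a call changed, the cause was not tested. At E5.25, where 0 members passed, Gata3 passed with a pseudocount of 0.1 (7.45) and without section 4 (3.24 to 4.03 over all left-out sections) and Hand1 with a filter at an FPKM of 5 (4.04), so that 0 to 1 rose. At E5.5, where 3 rose, Snai1 was lost with a pseudocount of 5 (0.72), no filter (2.14), rescaling (1.89), quantile normalization (1.36) and no variance trend (2.14), and leaving out sections gave it 1.95 to 2.44. With a filter at an FPKM of 5 the count was 1, without sections 1 and 2 it was 1 (Gata3 4.0 and Snai1 1.64 lost), and with detected genes in the model 0 (Hand1 2.97, Gata3 2.35, Snai1 0.21). Within sections 10 to 19, where 3 rose, leaving out a section left 0 to 3, with changes of 4.43 to 6.56 for Ascl2, 2.75 to 3.25 for Hand1 and 4.85 to 6.04 for Gata2, and Hand1 was lost without the variance trend (2.94).

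Counts over all genes moved more. The 29 genes of E5.25 became 1006 (pseudocount 0.1), 877 (filter at 5), 514 (no variance trend), 18 (no sections 1 and 2), 0 (pseudocount 5, no filter, quantiles or the covariate) and 3 to 818 (each section left out). The 2547 of E5.5 became 1476 (rescaled), 1168 (quantiles), 309 (no sections 1 and 2) and 0 (covariate). The 2339 of E5.75 became 1345 (quantiles), 1407 (no sections 1 and 2) and 624 (covariate). The 166 within sections 10 to 19 became 96 (no filter), 106 (no variance trend) and 37 to 229 (each section left out).

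The VE comparison, in which no member was tested, called 3671 genes, and 1688 with a filter at an FPKM of 5, 0 with quantiles and 2 to 5624 without each library. With section number as a replicate block it called 3800. The numbers 6 and 7 mark positions, and deviations of same-numbered libraries had r = 0.000773 over 2 pairs. Of 7 onsets that could be set at an FPKM of 5, 5 stayed, and 13 of 14 peaks stayed after rescaling. Without counts the lowest detectable level is unknown.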
